A study of Rattus norvegicus with 24 samples.

Results

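Gene expression in the left ventricle, the main pumping chamber of the heart, was compared with that of the adrenal gland in Wistar-Kyoto (WKY) rats aged 24 weeks. WKY is an inbred strain that serves as the control of the spontaneously hypertensive rat (SHR). The comparison rests on 4 left ventricle libraries and 4 adrenal gland libraries of WKY. A gene belonged to it when its level was at least 1 FPKM (sequenced fragments scaled by transcript length and library size) in 4 or more of these 8 libraries, and 13236 of the 20506 genes with values did. The same pair of tissues from SHR of the same age, with 4 libraries each, served as a repeat. Superior cervical ganglia of both strains complete the 6 groups and 24 libraries of the series, and ganglion levels are quoted for a few genes only. The labels give no treatment for any group. They do not say that the 4 libraries of a group came from separate rats, and a p-value therefore weighs only how much the libraries of a group vary, which could be technical variation.

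The wall of the left ventricle is built mainly of cardiomyocytes, muscle cells that contract through sarcomeres and draw their energy mostly from the mitochondrial oxidation of fatty acids. The adrenal gland joins a pair of endocrine tissues. Its cortex turns cholesterol into steroid hormones such as aldosterone and corticosterone, and the chromaffin cells of its medulla make, store and release adrenaline and noradrenaline. Both organs were taken as bulk tissue, so a low level cannot be split into fewer cells of a type and less RNA per cell; these cannot be told apart here.

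Tissue identity dominated the 8 libraries. The first principal component held 95.9% of their variance and the second 0.937%. Library correlations of log2(FPKM + 1) were 0.988 to 0.992 within the left ventricle, 0.988 to 0.992 within the adrenal gland and 0.627 to 0.641 between the tissues. FPKM sums were 542152 to 546826 in left ventricle libraries and 502020 to 517693 in adrenal libraries, and the sequencing depth is unknown, because FPKM holds no read count. On the second component, left ventricle replicate 4 lay apart at -18.42, against -3.13 to 8.87 for the 6 libraries other than it and adrenal replicate 1, which lay at -10.80. Genes that set it apart included the lymphatic chemokine Ccl21, at 180.82 FPKM there and 9.77 to 50.52 FPKM in the other left ventricle libraries. Adrenal replicate 2 stood apart in fat cell markers, which summed to 528 FPKM there and to 132 to 221 FPKM in the other adrenal libraries. Romo1, a mitochondrial gene, is listed at 0 in left ventricle replicate 3 and at 15.53 to 61.97 FPKM in the other 3 left ventricle libraries, so a value of 0 may be a failed estimate and is given only as listed.

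Most genes differed between the tissues. Differences are left ventricle minus adrenal gland on the log2(FPKM + 1) scale, tested with limma (a linear model that shares the estimate of spread across genes) with Benjamini-Hochberg adjustment over the 13236 genes. At an adjusted p under 0.05, 11045 genes were called, which is 83.4% of those tested: 4069 (30.7%) were higher and 6976 (52.7%) lower in the left ventricle. More than 2-fold differences, tested against that null, numbered 3863 (29.2%), with 1753 (13.2%) higher and 2110 (15.9%) lower. The values of the 4 left ventricle libraries did not overlap those of the 4 adrenal libraries in 10422 genes (78.7%). With such a background, a call as such says little, and the sizes below carry the description. Of the genes tested, 10853 reached 1 FPKM in all 8 libraries, 645 in all 4 left ventricle and no adrenal library, and 779 in all 4 adrenal and no left ventricle library. The last 2 kinds entered through one tissue and had to differ. The 1494 genes at the minimum in exactly 4 libraries had a median level of 1.89 FPKM over the 8 libraries (0.575 to 1285 FPKM), and the 286 genes at it in exactly 3 libraries, which were left out, 0.817 FPKM (0.492 to 8.05 FPKM).

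The direction of the small differences depended on scaling. The median difference was -0.28 over all genes, and 36.8% of the called genes and 45.4% of those more than 2-fold apart were higher in the left ventricle. After median-of-ratios scaling these shares were 49.6% and 58.2%, and the median of all genes moved by 0.27. After quantile normalization they were 44.3% and 53.5% with a move of 0.16, and with FPKM rescaled to a common sum 33.8% and 40.9% with a move of -0.10. The direction of a called difference smaller than these moves rests on the scaling, and each list median below stands beside the -0.28 of all genes.

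The labelled tissues carried their own markers. All 11 cardiomyocyte markers were higher and all 11 adrenocortical markers were lower in the left ventricle than in the adrenal gland. Of 11 chromaffin markers, 10 were lower and 1, Penk, was higher in the left ventricle. The summed level of the cardiomyocyte markers was 34659 to 38402 FPKM in left ventricle libraries and 29.9 to 33.4 FPKM in adrenal libraries. The summed adrenocortical markers gave 70.8 to 79.1 FPKM in left ventricle libraries and 38303 to 40234 FPKM in adrenal libraries. The chromaffin markers summed to 95.6 to 113 FPKM in left ventricle libraries and 2155 to 2469 FPKM in adrenal libraries. Of 10 skeletal muscle markers 3 entered (Ckm, Acta1 and Tnnt3, of which cardiac muscle uses the first pair), all higher in the left ventricle, and the skeletal myosin heavy chains Myh1, Myh2 and Myh4 did not enter. Of 9 atrial markers 6 entered, 3 of them higher, 1 lower and 2 not called. Of 10 kidney and liver markers 2 entered: Ttr, with 23.1 ± 0.528 FPKM in the left ventricle and 0.045 ± 0.052 FPKM in the adrenal gland (SD, n = 4 each), and Serpina1, listed at 0 in every left ventricle library and at 8.31 to 11.9 FPKM in adrenal libraries. Of 9 neuron markers that entered 8 were lower in the left ventricle and 1, Prph, was higher, a call that was lost without left ventricle replicate 1 or 4 or adrenal replicate 2 and with FPKM rescaled to a common sum.

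The tails were long on both sides and similar in length. At least 4 log2 units, 229 genes were higher and 191 lower in the left ventricle, and at least 8 units 25 were higher and 23 lower. The 10 genes with the largest rise were myoglobin (Mb), 8 sarcomere or Z-disc genes (Myl2, Actc1, Myl3, Tnnc1, Tnni3, Tnnt2, Myh7, Ankrd1) and the fatty acid carrier Fabp3, with differences of 10.45 to 11.67. The 10 with the largest fall were Hsd3b3, Akr1b7, Star, LOC680316, Cyp11b2, Hsd3b6, Cyp11a1, Cyp21a1, LOC100910462 and Cyp11b3, with differences of -9.48 to -11.45, most of them enzymes of steroid hormone synthesis. In the left ventricle 68 genes averaged at least 1000 FPKM and in the adrenal gland 28 did. Of the 68, 20 stood in the adrenal gland under 0.1% of their left ventricle level, the lowest at 0.0235%. Of the 28, 8 stood in the left ventricle under 0.1% of their adrenal level, the lowest at 0.0188%.

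**Figure D1:**
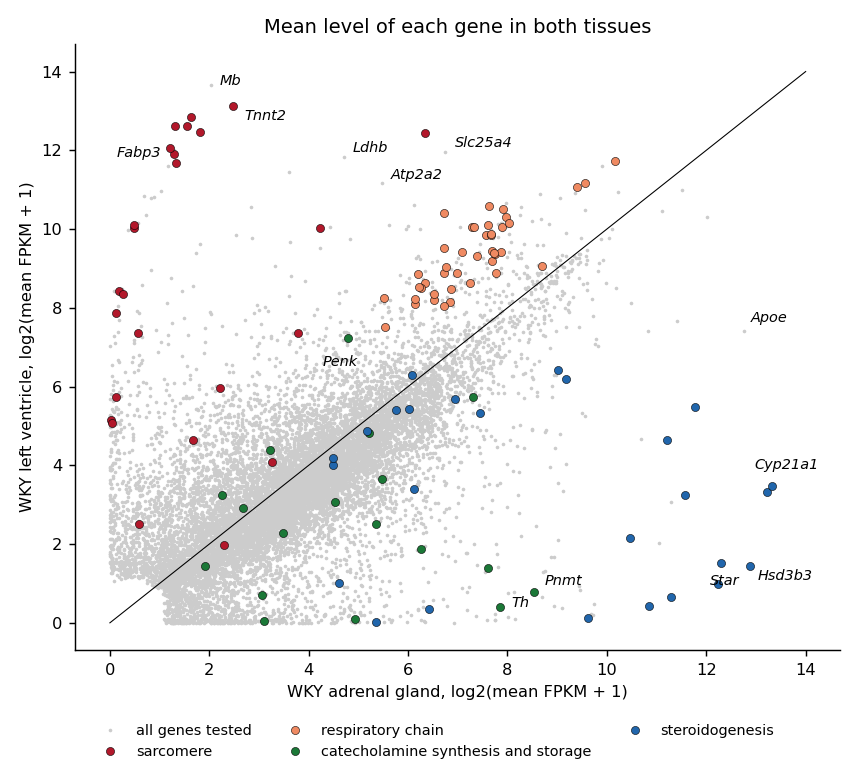
Each point is 1 of 13236 genes, with the log2 of the mean FPKM + 1 of 4 WKY left ventricle libraries on the vertical axis and of 4 WKY adrenal gland libraries on the horizontal axis; the line marks equal levels. Most sarcomere genes (red) lie far above the line at upper left, while Myl4 lies slightly below it. Respiratory chain genes (orange) run a few units above it at high levels in both tissues. Steroidogenesis genes (blue), except Hsd17b4, and most catecholamine genes (green) lie below it.

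The sarcomere was the most abundant group in the left ventricle. Its 29 listed genes took 9.85 to 10.8% of the FPKM sum of left ventricle libraries and 0.0268 to 0.0303% of that of adrenal libraries. Of these genes, 25 entered the comparison; 24 were higher in the left ventricle, 23 of them more than 2-fold, none was lower, and the median difference was 7.74; without left ventricle replicate 3, 1 was lower. Myh6 and Myh7 encode the fast and the slow cardiac myosin heavy chain. Myh6 had 2862, 3705, 3207 and 3318 FPKM in the 4 left ventricle libraries, against 1.46, 1.25, 1.70 and 1.61 FPKM in the 4 adrenal libraries. Myh7 had 3751, 3399, 4470.3 and 3649.5 FPKM in the left ventricle and 1.72, 0.99, 1.66 and 1.42 FPKM in the adrenal gland. Both stood over 10 log2 units apart between the tissues (10.35 ± 0.08 and 10.61 ± 0.11, SE; limma adjusted p = 8.9e-15 and 5.71e-14), and the left ventricle held them at similar levels per length, although the 2 genes are close paralogs and reads may be split between them.

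The troponin complex switches contraction on with calcium. Tnnt2, its tropomyosin-binding subunit, had 8891, 8902, 9435 and 8630.0 FPKM in left ventricle libraries and 4.20, 4.67, 4.86 and 4.66 FPKM in adrenal libraries, a difference of 10.65 ± 0.06 (SE, limma adjusted p = 6.74e-16). The inhibitory subunit Tnni3 had 5714, 5666, 6019 and 5357 FPKM in the left ventricle and 2.59, 3.10, 2.26 and 2.19 FPKM in the adrenal gland. For both genes every left ventricle value was more than 1000 times every adrenal value. Cardiac actin Actc1 averaged 7350 ± 584 FPKM in the left ventricle and 2.09 ± 0.703 FPKM in the adrenal gland (SD, n = 4 each). Skeletal actin Acta1 spread more, at 749.5, 773, 1211 and 1469.9 FPKM in the left ventricle and 0.55, 0.55, 0.33 and 0.18 FPKM in the adrenal gland. Titin (Ttn), the giant spring of the sarcomere, averaged 34.7 ± 4.75 FPKM in the left ventricle and 0.02 FPKM in each adrenal library. Tpm1, tropomyosin, was not silent in the gland, at 5288 to 5779.9 FPKM in left ventricle and 74.2 to 85.6 FPKM in adrenal libraries, and Myl4, the atrial essential light chain, did not pass the test (2.92 ± 1.74 FPKM in the left ventricle, 3.89 ± 0.562 FPKM in the adrenal gland), although it was called lower without left ventricle replicate 3.

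Z-discs anchor the thin filaments and intercalated discs join cardiomyocytes end to end. Of 35 such genes 33 entered; 32 were higher in the left ventricle, 31 more than 2-fold, none was lower, and the median difference was 5.30. Ankrd1, a stretch-responsive titin-binding protein, had 2909, 3276, 3186 and 3096 FPKM in left ventricle libraries and 1.69, 1.19, 1.31 and 0.80 FPKM in adrenal libraries. Csrp3, the muscle LIM protein, had 937, 941, 1176 and 1002 FPKM in the left ventricle and 0.39, 0.27, 0.31 and 0.16 FPKM in the adrenal gland, a difference of 9.62 ± 0.08. Myoz2, which ties calcineurin to the Z-disc, differed by 9.61 ± 0.08 (both limma, adjusted p = 1.3e-14 and 1.2e-14). Genes of cell junctions shared with other tissues differed less: vinculin (Vcl) by 1.06, plakoglobin (Jup) by 1.95 and desmoplakin (Dsp) by 2.07. The gap junction gene Gja1, which couples cardiomyocytes electrically and also joins adrenocortical cells, did not pass the test, at 179.7 to 212 FPKM in left ventricle and 161 to 213 FPKM in adrenal libraries, which overlap.

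Promoters of these genes were searched for the binding motif of MEF2, a transcription factor of muscle, in the 250 bases before the annotated start (RefSeq, assembly GRCr8, which is not the build of the expression values). Where a promoter was in the table, the motif was present in 8 of 27 Z-disc genes (29.6%) and 2 of 19 sarcomere genes (10.5%), against 161 of 10380 promoters of all genes compared (1.55%) and 3.07% of all 27457 promoters of that length. It was present in 23 of 174 promoters (13.2%) of genes at least 4 log2 units higher in the left ventricle and in 1 of 140 (0.714%) of those at least 4 units lower. Among the matches in the first of these sets, 6 of 23 also contain the letters TATAAA, so the 2 motifs overlap in part. MEF2 was not the only motif more frequent in these sets. The CArG motif was present in 4 of 27 Z-disc genes (14.8%) and 3 of 19 sarcomere genes (15.8%), against 1.2% of all genes compared. In genes at least 4 log2 units higher in the left ventricle, TATAAA was present in 15.5% and AGATAA in 12.1%. Over all genes compared these shares were 6.55% and 5.52%. A match describes the sequence, not binding. The 4 sarcomere or Z-disc genes with the motif and the largest differences are shown, each from 250 bases upstream to the last base before the start; capitals mark the MEF2 motif. In Hspb7 they also mark the letters TATAAA. Capitals in Smpx mark, besides, a motif of GATA factors, the letters AGATAA.
Mybpc3: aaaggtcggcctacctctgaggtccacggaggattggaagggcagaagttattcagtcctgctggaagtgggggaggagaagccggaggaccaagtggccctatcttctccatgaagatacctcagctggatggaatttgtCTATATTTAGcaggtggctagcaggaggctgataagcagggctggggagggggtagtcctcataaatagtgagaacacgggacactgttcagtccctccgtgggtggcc
Myoz2: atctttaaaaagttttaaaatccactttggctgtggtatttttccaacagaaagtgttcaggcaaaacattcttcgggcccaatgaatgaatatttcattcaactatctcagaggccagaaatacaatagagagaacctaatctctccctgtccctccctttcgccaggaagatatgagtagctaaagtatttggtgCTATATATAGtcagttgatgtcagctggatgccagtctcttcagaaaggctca
Hspb7: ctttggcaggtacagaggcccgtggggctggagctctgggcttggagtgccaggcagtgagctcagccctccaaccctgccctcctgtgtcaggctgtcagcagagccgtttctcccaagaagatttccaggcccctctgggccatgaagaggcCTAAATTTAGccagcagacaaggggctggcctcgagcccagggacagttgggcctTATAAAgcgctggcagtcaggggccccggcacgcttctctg
Smpx: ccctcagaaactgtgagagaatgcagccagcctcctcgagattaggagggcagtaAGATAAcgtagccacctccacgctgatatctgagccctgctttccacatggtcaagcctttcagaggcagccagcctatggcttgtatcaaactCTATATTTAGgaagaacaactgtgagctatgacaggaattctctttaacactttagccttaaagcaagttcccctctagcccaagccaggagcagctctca
These lie on GRCr8 at chr3:97550811-97551060 (plus strand; cardiac myosin-binding protein C), chr2:213852779-213853028 (minus strand), chr5:159010509-159010758 (plus strand; a small heat shock protein of the sarcomere) and chrX:41107138-41107387 (minus strand; a small muscle protein of the costamere). The MEF2 motif began 109, 53, 96 and 101 bases before the start in Mybpc3, Myoz2, Hspb7 and Smpx. All 4 genes averaged under 3 FPKM in the gland. Mybpc3 averaged 1092 ± 51 FPKM in left ventricle and 0.402 ± 0.161 FPKM in adrenal libraries, and Smpx 372 ± 16 FPKM in left ventricle and 2.2 ± 0.454 FPKM in adrenal libraries (SD, n = 4 each).

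Calcium released from the sarcoplasmic reticulum drives each beat. Of 28 calcium cycling genes 25 entered; 22 were higher in the left ventricle, 15 more than 2-fold, 1 was lower and 2 were not called, with a median of 2.48. The calcium pump Atp2a2 had 2072, 2377, 2189 and 2649 FPKM in the left ventricle and 46.3, 42.0, 45.0 and 40.5 FPKM in the adrenal gland. Its inhibitor phospholamban (Pln) had 1702, 1847, 1755 and 1729 FPKM in the left ventricle and 0.78, 0.73, 0.69 and 0.92 FPKM in the adrenal gland. The pump thus kept at least 40.5 FPKM in every adrenal library, while its inhibitor stayed under 1 FPKM there. The release channel Ryr2 averaged 85.3 ± 6.84 FPKM in the left ventricle and 0.48 ± 0.0716 FPKM in the adrenal gland, and calsequestrin Casq2, the calcium store protein, 499 ± 23.2 FPKM in the left ventricle and 0.775 ± 0.296 FPKM in the adrenal gland. Cacna2d1, a calcium channel subunit, was the called exception, lower in the left ventricle at 9.29 to 11.5 FPKM than in the adrenal gland at 25.3 to 29.1 FPKM.

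Of 30 ion channel and receptor genes 28 entered, of which 24 were higher, 2 lower and 2 not called, with a median of 2.86. Kcnip2, the partner of the transient outward potassium channels, averaged 381 ± 27.6 FPKM in the left ventricle and 0.56 ± 0.494 FPKM in the adrenal gland. Kcnk3 (-2.98), the background potassium channel TASK-1 of aldosterone-producing cells, was the gene furthest lower in the left ventricle. The beta-1 adrenergic receptor Adrb1, on which circulating and nerve-released catecholamines act, had 4.76, 4.22, 5.07 and 5.75 FPKM in the left ventricle and 0.09, 0.27, 0.09 and 0.27 FPKM in the adrenal gland, a difference of 2.33 ± 0.11 (SE, limma adjusted p = 3.95e-09).

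Transcription factors split by lineage. Of 30 listed for the heart 29 entered; 24 were higher in the left ventricle, 3 lower and 2 not called, with a median of 1.62. Nkx2-5, a founder of the cardiac program, had 35.0, 40.5, 34.2 and 36.6 FPKM in left ventricle libraries and is listed at 0 in the 4 adrenal libraries, as is Irx4, a ventricular factor. Gata4 had 31.6, 27.1, 31.6 and 34.5 FPKM in the left ventricle and 0, 0.02, 0.07 and 0.06 FPKM in the adrenal gland, a difference of 4.95 ± 0.09 (SE, limma adjusted p = 2.34e-12). Its paralog Gata6 had 28.7, 27.1, 31.7 and 30.8 FPKM in the left ventricle and 41.9, 28.1, 42.3 and 33.2 FPKM in the adrenal gland. The 2 tissues thus overlapped in Gata6 and not in Gata4. Gata6 did not pass the test (-0.27 ± 0.12, limma adjusted p = 0.058), and without adrenal replicate 2 it was called lower in the left ventricle (-0.39, adjusted p = 0.00377). Gata6 was also called lower with FPKM rescaled to a common sum (-0.37, limma adjusted p = 0.02). The same held in a fit of all 24 libraries (-0.27, adjusted p = 0.0178) and with a replicate block (-0.27, adjusted p = 0.0276). Meis1 (-3.15), Meis2 (-2.74) and Hand1 (-2.89) were the factors of this list called lower.

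Natriuretic peptides are hormones by which the heart makes the kidney excrete salt. Nppa had 580.0, 2019, 2009 and 626 FPKM in left ventricle libraries and 1.04, 0.40, 1.03 and 0.16 FPKM in adrenal libraries. The left ventricle libraries fell into a low and a high pair, all far above the gland (9.42 ± 0.50, SE, limma adjusted p = 8.93e-07). Nppb spread less, at 346, 391, 321 and 320.5 FPKM in the left ventricle and 0.11, 0, 0 and 0.11 FPKM in the adrenal gland. Corin, the protease that activates Nppa, averaged 34.6 ± 7.28 FPKM in the left ventricle and 0.16 ± 0.0141 FPKM in the adrenal gland, whereas Npr1, the receptor of both peptides, was lower in the left ventricle at 18.3 to 24.3 FPKM than in the adrenal gland at 73.7 to 84.3 FPKM (-1.86 ± 0.09). Among 22 such secreted factors and receptors 20 entered, 14 higher and 5 lower, with a median of 1.81.

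**Figure D2:**
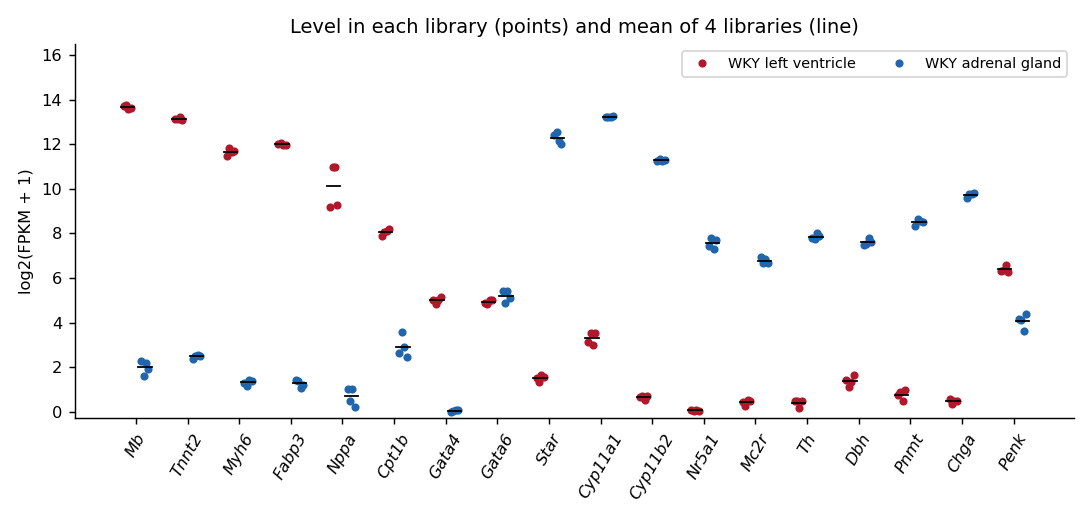
Level of 18 genes in each library as log2(FPKM + 1), with left ventricle libraries in red at left and adrenal libraries in blue at right of each pair and the mean of 4 libraries as a line. From Mb to Gata4 the left ventricle is higher, Gata6 overlaps, from Star to Chga the adrenal gland is higher, and Penk is higher in the left ventricle; Nppa shows a low and a high pair of left ventricle libraries.

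Respiratory chain genes were higher in the left ventricle throughout, with smaller differences than the contractile genes. All 42 respiratory chain and ATP synthase genes entered and all were higher in the left ventricle, 40 of them more than 2-fold, with a median of 2.11. They took 6.09 to 6.37% of the FPKM sum in left ventricle libraries and 1.58 to 1.74% in adrenal libraries. Cytochrome c (Cycs) had 1359, 1467, 1244 and 1322 FPKM in the left ventricle and 98.3, 116, 98.9 and 102 FPKM in the adrenal gland, a difference of 3.68 ± 0.07 (SE, limma adjusted p = 4.54e-12). The citric acid cycle and pyruvate list had 28 of 32 genes higher, 4 lower and a median of 1.62. Idh2, the mitochondrial NADPH-forming isocitrate dehydrogenase, led it with 1490.1, 1607, 1543 and 1608 FPKM in the left ventricle and 62.8, 70.4, 70.5 and 69.3 FPKM in the adrenal gland. Its cytosolic counterpart Idh1 went the other way, at 52.2, 61.5, 53.9 and 56.7 FPKM in the left ventricle and 291, 325, 279 and 291 FPKM in the adrenal gland. The other genes called lower were the cytosolic malic enzyme Me1 (-2.50), pyruvate carboxylase Pc (-2.40) and Suclg2 (-0.73); Idh1 and Me1 both yield NADPH.

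Fatty acid genes were unevenly raised. All 32 entered, 24 higher in the left ventricle, 16 of them more than 2-fold, 5 lower and 3 not called, with a median of 1.17. Fabp3, the muscle fatty acid carrier, differed most of the list. It had 4193, 4291, 3975 and 3972 FPKM in left ventricle libraries and 1.72, 1.64, 1.11 and 1.31 FPKM in adrenal libraries, a difference of 10.72 ± 0.08. Lipoprotein lipase (Lpl) averaged 1021 ± 79.9 FPKM in the left ventricle and 61.5 ± 13.2 FPKM in the adrenal gland, and the uptake receptor Cd36 938 ± 61.4 FPKM in the left ventricle and 262 ± 25.6 FPKM in the adrenal gland (a difference of 1.84). Among the beta-oxidation enzymes Acadm differed by 1.68, Acadl by 2.09 and Hadhb by 1.28, while Hadha (mean 389 ± 14.5 FPKM in the left ventricle, 380 ± 27.9 FPKM in the adrenal gland) and Cpt2 did not pass the test. The genes lower in the left ventricle were Cpt1a (-2.37), Slc27a1 (-1.01), hormone-sensitive lipase Lipe (-0.98), Decr1 (-0.56) and Etfdh (-0.19). For ketone and branched-chain amino acid use 15 of 20 genes were higher and 4 lower, with a median of 0.54. Oxct1, which commits ketone bodies to oxidation, had 554, 652, 585 and 687 FPKM in the left ventricle and 78.6, 69.6, 63.9 and 70.6 FPKM in the adrenal gland.

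Genes of high-energy phosphate and oxygen buffering had the highest median among the 6 metabolic lists. Of 20 genes 17 were higher in the left ventricle and 2 lower, with a median of 2.39. Myoglobin (Mb), the oxygen store of muscle, was the most abundant transcript compared, with 13434, 13843, 12398 and 12484 FPKM in left ventricle libraries and 3.88, 2.06, 3.59 and 2.74 FPKM in adrenal libraries. Creatine kinases carry high-energy phosphate between mitochondria and myofibrils. Ckm had 1732, 1807, 1605 and 2018 FPKM in the left ventricle and 0.84, 0.44, 1.05 and 1.06 FPKM in the adrenal gland, and mitochondrial Ckmt2 had 1714, 1969.8, 1887 and 1818 FPKM in the left ventricle and 0.79, 0.42, 0.52 and 0.69 FPKM in the adrenal gland. All left ventricle values of the 3 genes were above 1000 FPKM and all adrenal values under 4 FPKM. The creatine transporter Slc6a8 was lower in the left ventricle (-0.82 ± 0.08). In glycolysis and glycogen use 34 of 35 genes entered, with 24 higher, 8 lower and a median of 1.13; the insulin-responsive glucose transporter Slc2a4 had 169, 189, 175 and 186 FPKM in the left ventricle and 1.42, 4.94, 1.71 and 3.07 FPKM in the adrenal gland.

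Within most of the chosen protein families the tissues used different members. For 32 pairs of related genes, 1 member was named first, in most pairs the form known from heart or muscle, and its share in the pair's FPKM was computed per library. It was higher in left ventricle than in adrenal libraries without overlap in 29 pairs and lower without overlap in 1 (Cox4i1). In 23 pairs the majority form, judged by mean shares, differed between the tissues. Single libraries crossed 50% in some of them. Gata4 averaged 51.3% of its pair with Gata6 in the left ventricle, with 49.9% in the lowest library. Pygm and Pdk4 reached 55.9% and 59.0% in their highest adrenal library. Some of the 23 pairs were low in the adrenal gland, such as Ppargc1a with Ppargc1b (summed 1.59 FPKM), Pygm with Pygl (4.69 FPKM) and Fabp3 with Fabp5 (6.03 FPKM). The pairs were chosen with earlier results known, and no such share was computed for other gene pairs. Of all genes compared, 78.7% did not overlap between the tissues in level. The 29 and the 23 both include the vesicle monoamine transporters, in which the first-named Slc18a2 is no heart form and the pair summed to 1.78 FPKM in the left ventricle and 32.3 FPKM in the adrenal gland. In creatine kinase, Ckm made up 93.2 ± 0.583% of Ckm plus Ckb in the left ventricle and 1.46 ± 0.486% in the adrenal gland (SD, n = 4 each). In cytochrome c oxidase, Cox6a2 made up 90.0% in the left ventricle and 0.250% in the adrenal gland, and Cox8b 89.2% in the left ventricle and 2.52% in the adrenal gland. Pgam2 made up 87.0% of phosphoglycerate mutase in the left ventricle and 0.678% in the adrenal gland, and Ldhb made up 84.8% of lactate dehydrogenase in the left ventricle and 8.0% in the adrenal gland. Cpt1b made up 92.4% of carnitine palmitoyltransferase 1 in the left ventricle and 5.42% in the adrenal gland. Acsl1 made up 98.6% of its pair with Acsl4 in the left ventricle and 15.4% in the adrenal gland. Acsl4, which prefers arachidonic acid, had 3.95, 3.39, 3.36 and 3.64 FPKM in the left ventricle and 365, 274, 289.6 and 307 FPKM in the adrenal gland.

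In the deposited values, not every muscle form had the larger share. Cox7a1, the muscle form of another oxidase subunit, made up 1.60% of its pair in the left ventricle and 0.648% in the adrenal gland, and Cox7a2 provided the rest in both. Whether the low Cox7a1 values are failed estimates was not tested. Eef1a2, the elongation factor form of muscle and neurons, reached 24.6% in the left ventricle and 0.344% in the adrenal gland. Aldoa and Atp2a2 were the majority form in both tissues, with mean shares of at least 98.1%. The shares of Hk2 and Tnni3 overlapped between the tissues. The adrenal shares of Pygm (12.8 to 55.9%), Pdk4 (20.7 to 59.0%) and Slc2a4 (17.4 to 43.4%) varied widely. Adrenal replicate 2, the library with the high fat cell markers, had the highest adrenal FPKM of Slc2a4, Pdk4, Cpt1b, Cox8b, Acacb and Ldhb; the part of fat tissue in these values was not tested.

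**Figure D3:**
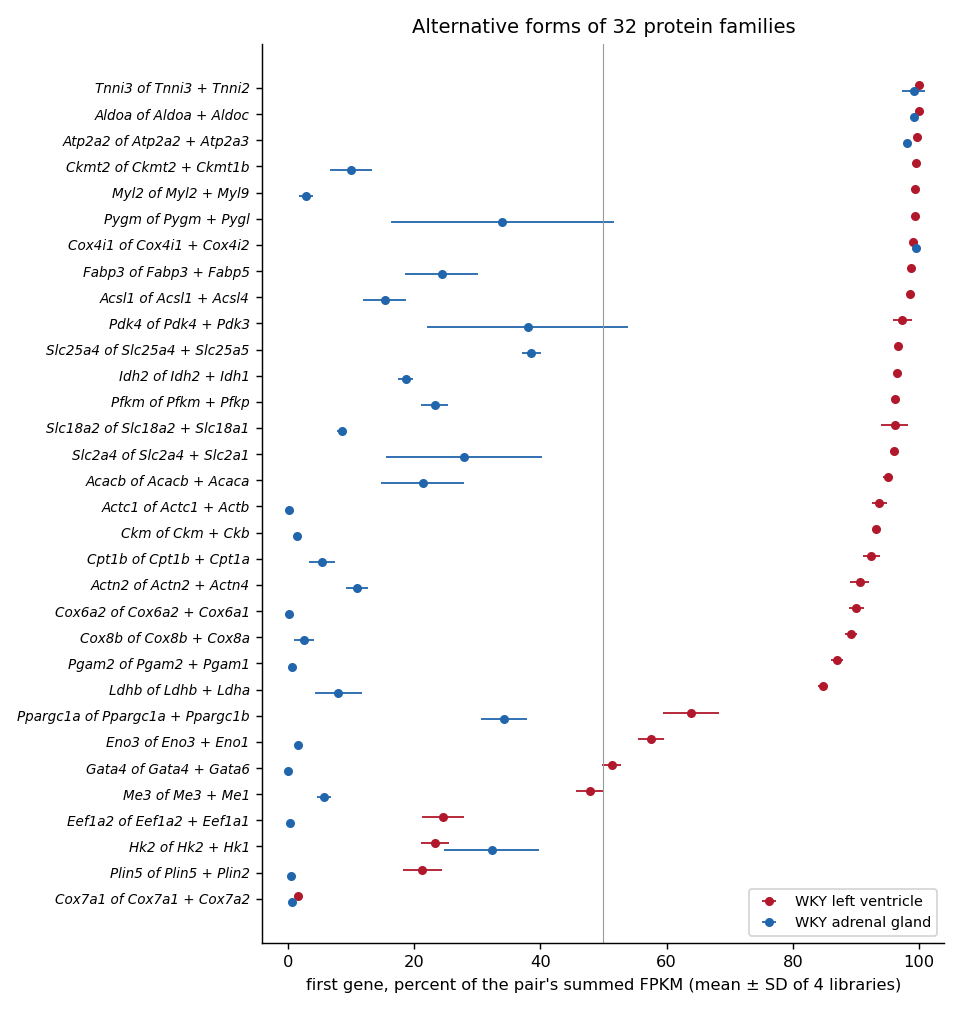
Share of the first-named gene in the summed FPKM of each of 32 pairs (horizontal axis, percent), as mean ± SD of 4 WKY left ventricle libraries (red) and 4 WKY adrenal gland libraries (blue). Pairs such as Ckm (93.2% in the left ventricle, 1.46% in the adrenal gland) lie at opposite ends; Aldoa, Atp2a2, Cox4i1 and Tnni3 are near each other, and Cox7a1 is low in both.

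Steroid hormone synthesis was the most abundant of the adrenal lists. Its 29 listed genes took 0.106 to 0.108% of the FPKM sum in left ventricle libraries and 10.5 to 11.1% in adrenal libraries. Of the 26 that entered, 25 were lower in the left ventricle, 20 more than 2-fold, and 1, Hsd17b4, was higher (0.22), a call that was lost with FPKM rescaled to a common sum; the median was -5.70. Star, which carries cholesterol into mitochondria, had 1.87, 1.53, 2.15 and 1.93 FPKM in left ventricle libraries and 5533, 6038, 4505 and 4096 FPKM in adrenal libraries, a difference of -10.77 ± 0.12 (SE, limma adjusted p = 1.59e-13). Cyp11a1, which cleaves its side chain, had 7.82, 10.6, 6.92 and 10.6 FPKM in the left ventricle and 9593, 9614, 9444 and 9747 FPKM in the adrenal gland. Cyp21a1, steroid 21-hydroxylase, had 10.1, 11.6, 9.35 and 9.69 FPKM in the left ventricle and 9852, 10571, 10372 and 10426 FPKM in the adrenal gland. The last 2 were the most abundant of the list and varied little among adrenal libraries. The electron donors of Cyp11a1 followed at a distance. Ferredoxin Fdx1 averaged 43.5 ± 2.53 FPKM in the left ventricle and 3514 ± 106 FPKM in the adrenal gland. Its reductase Fdxr averaged 3.42 ± 0.436 FPKM in the left ventricle and 1413 ± 74.4 FPKM in the adrenal gland.

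The promoter of Cyp21a1 is shown because the gene had the highest adrenal level of the list; capitals mark TATAAA, which began 32 bases before the start (RefSeq, GRCr8, chr20:4028141-4028390, plus strand).
Cyp21a1: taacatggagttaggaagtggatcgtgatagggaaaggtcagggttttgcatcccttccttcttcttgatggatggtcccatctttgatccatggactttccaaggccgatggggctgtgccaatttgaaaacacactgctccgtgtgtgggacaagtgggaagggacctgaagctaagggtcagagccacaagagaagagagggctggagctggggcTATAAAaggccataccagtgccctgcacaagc
The letters CAAGGTCA, a motif of the steroidogenic factor encoded by Nr5a1, were searched on both strands in the same window. They were found in 0 of 19 steroidogenesis promoters in the table, 0.79% of the promoters of all genes compared and 1.3% of all promoters. That says only that these letters are not in this window.

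Aldosterone synthase Cyp11b2 had 0.58, 0.62, 0.45 and 0.61 FPKM in left ventricle libraries and 2424, 2591, 2426 and 2520.2 FPKM in adrenal libraries, a difference of -10.64 ± 0.05. It has near-identical copies, Cyp11b3 among them, between which reads may be split or shared, so its level is uncertain; the same holds for Hsd3b3, Hsd3b6 and Hsd3b5 and for Akr1b7 and Akr1b8. Cyp11b1 and Hsd3b1 were not analysed here. Hsd3b3 had 1.43, 1.33, 2.11 and 2.02 FPKM in the left ventricle and 8026, 7117, 7627 and 7530.2 FPKM in the adrenal gland. Akr1b7, which clears a by-product of side chain cleavage, had 1.06, 0.77, 1.24 and 0.90 FPKM in the left ventricle and 4624, 4372, 5082 and 5114 FPKM in the adrenal gland. LOC680316, annotated as a pseudogene in the RefSeq gene table, had 0.35, 0.62, 0.41 and 0.85 FPKM in the left ventricle and 2724, 2824, 2465 and 2265 FPKM in the adrenal gland. Cyp17a1, the enzyme that rat adrenals largely lack, was under 1 FPKM in both tissues and did not enter.

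Cholesterol synthesis and uptake genes were mostly lower in the left ventricle. Of 34 genes 32 entered; 26 were lower, 21 more than 2-fold, 2 higher and 4 not called, with a median of -2.07. Scarb1, the receptor for high-density lipoprotein, had 7.68, 7.33, 7.05 and 7.30 FPKM in left ventricle libraries and 2834, 2711, 2361 and 2172 FPKM in adrenal libraries, a difference of -8.23 ± 0.08 (SE, limma adjusted p = 3.14e-14). Soat1, which esterifies cholesterol for storage, averaged 3.29 ± 0.461 FPKM in the left ventricle and 514 ± 88.5 FPKM in the adrenal gland. Of the synthesis enzymes, the last step, Dhcr7, differed most, with 1.54, 1.18, 1.58 and 1.44 FPKM in the left ventricle and 462, 452, 380.1 and 389.6 FPKM in the adrenal gland. Hmgcs1 spread widely in the gland, at 12.2, 10.5, 10.7 and 10.9 FPKM in left ventricle and 25.4, 114, 19.7 and 45.7 FPKM in adrenal libraries; its difference of -1.78 was -1.29 without adrenal replicate 2. Apoe averaged 171 ± 15 FPKM in the left ventricle and 6895 ± 703 FPKM in the adrenal gland. Fdft1, Npc2, Stard4 and Abcg1 did not pass the test, and Pmvk (0.51) and Osbpl1a (1.04) were higher in the left ventricle.

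Regulators of the cortex were mostly lower in the left ventricle, 34 of 45 that entered, with 7 higher and a median of -1.54. Nr5a1, which encodes steroidogenic factor 1, had 0.07, 0.04, 0.07 and 0.04 FPKM in left ventricle libraries and 171, 224, 158 and 209.9 FPKM in adrenal libraries. The corticotropin receptor Mc2r had 0.34, 0.19, 0.43 and 0.40 FPKM in the left ventricle and 120.4, 100.3, 114 and 100.4 FPKM in the adrenal gland, and its accessory protein Mrap averaged 1.51 ± 0.569 FPKM in the left ventricle and 434 ± 43.4 FPKM in the adrenal gland. Differences were -7.49, -6.35 and -7.46 for Nr5a1, Mc2r and Mrap. The angiotensin receptor Agtr1b, the gate of aldosterone release, is listed at 0 in all left ventricle libraries and had 12.9, 13.99, 17.5 and 12.3 FPKM in adrenal libraries, while Agtr1a had 1.47, 1.59, 1.96 and 2.68 FPKM in the left ventricle and 19.4, 21.3, 23.1 and 20.5 FPKM in the adrenal gland. The outer cortex genes Wnt4 (-4.90), Dlk1 (-8.50) and Kcnk9 (-5.63) were all lower and averaged under 1 FPKM in the left ventricle. The genes called higher in the left ventricle were Gata4, Wt1, Tcf21, Adcy4, Adcy5, Inhbb and Igfbp6.

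Redox defence genes were lower in the left ventricle in 20 of 27 cases and higher in 3, with a median of -1.14. Prdx3, the mitochondrial peroxiredoxin, averaged 279 ± 14.7 FPKM in the left ventricle and 1438 ± 28.1 FPKM in the adrenal gland, and the vitamin C transporter Slc23a2 5.98 ± 0.713 FPKM in the left ventricle and 202 ± 40.6 FPKM in the adrenal gland. Gsta1, a glutathione transferase with isomerase activity toward steroids, had 7.11, 7.57, 12.9 and 14.9 FPKM in the left ventricle and 594, 553, 454 and 474 FPKM in the adrenal gland. Those higher in the left ventricle were Gstm2 (3.69), Gpx3 (2.39) and Nnt (1.24). After median-of-ratios scaling 7 genes of this list were called higher.

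The medulla was visible as a second adrenal signature, smaller in abundance. Catecholamine genes took 0.0468 to 0.0625% of the FPKM sum in left ventricle libraries and 0.237 to 0.263% in adrenal libraries. All 18 entered, 14 lower in the left ventricle, 11 of them more than 2-fold, 3 higher and 1 not called, with a median of -1.70. Tyrosine hydroxylase (Th), the rate-limiting enzyme, had 0.39, 0.40, 0.13 and 0.39 FPKM in left ventricle libraries and 218, 216, 259 and 232 FPKM in adrenal libraries, a difference of -7.45 ± 0.09 (SE, limma adjusted p = 1.28e-13). Dbh, which makes noradrenaline, had 1.65, 1.19, 1.51 and 2.10 FPKM in the left ventricle and 180.5, 185, 220.0 and 195 FPKM in the adrenal gland. Pnmt, which turns it into adrenaline, had 0.66, 0.86, 0.40 and 0.98 FPKM in the left ventricle and 326, 405, 375 and 364 FPKM in the adrenal gland. All 3 were near the floor in the left ventricle in every library. Ddc, which many non-neural cells use, differed by only -1.83 ± 0.10, with a left ventricle mean of 11.5 ± 1.73 FPKM. In the ganglion, whose neurons make noradrenaline and not adrenaline, Dbh averaged 1968 FPKM and Pnmt 0.18 FPKM.

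The Th promoter is shown because it carries the 8-base cyclic AMP response element, TGACGTCA, in capitals, starting 69 bases before the start (RefSeq, GRCr8, chr1:207508219-207508468, minus strand).
Th: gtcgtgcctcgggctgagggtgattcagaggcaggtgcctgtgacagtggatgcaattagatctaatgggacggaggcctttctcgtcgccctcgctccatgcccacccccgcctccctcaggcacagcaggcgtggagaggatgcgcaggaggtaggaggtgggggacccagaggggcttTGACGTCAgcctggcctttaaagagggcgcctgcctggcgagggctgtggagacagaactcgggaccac
This element, searched on both strands, was found in 2 of 14 catecholamine gene promoters (14.3%), against 2.83% of the promoters of all genes compared. It was not particular in this list. TATAAA and AGATAA were each also present in 2 of 14 (14.3%), against 6.55% and 5.52% of all genes compared. In genes at least 4 log2 units lower in the left ventricle, TGACGTCA was present in 3 of 140 promoters (2.14%).

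Storage and breakdown genes showed a different mix. Of the vesicular monoamine transporters, Slc18a1, the chromaffin form, had 0.03, 0.07, 0.06 and 0.10 FPKM in the left ventricle and 27.9, 27.8, 29.97 and 32.6 FPKM in the adrenal gland, while Slc18a2, the neuronal form, had 2.12, 1.72, 1.59 and 1.43 FPKM in the left ventricle and 2.92, 2.58, 2.72 and 2.80 FPKM in the adrenal gland. Monoamine oxidases, which degrade catecholamines, were higher in the left ventricle: Maoa averaged 150 ± 41.3 FPKM in the left ventricle and 26.8 ± 0.868 FPKM in the adrenal gland (2.40 ± 0.18), and Maob differed by 0.94. The third gene called higher was Spr (1.18), of the cofactor path.

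Granins build the hormone granules of chromaffin cells. Chga had 0.48, 0.29, 0.39 and 0.40 FPKM in left ventricle libraries and 764, 870.4, 872 and 894 FPKM in adrenal libraries. Chgb had 0.27, 0.19, 0.26 and 0.44 FPKM in the left ventricle and 493, 553, 557 and 587 FPKM in the adrenal gland. Their differences were -9.26 ± 0.07 and -8.73 ± 0.08 (limma, adjusted p = 6.14e-15 and 1.29e-14). Of 31 granin, peptide and processing genes only 16 entered; 11 were lower and 3 higher in the left ventricle. The 3 higher ones were the processing enzymes Pam (2.18) and Cpe (1.88), which cardiomyocytes also use, and proenkephalin (Penk). Penk, the opioid precursor counted among the chromaffin markers, had 78.7, 81.7, 94.8 and 76.7 FPKM in the left ventricle and 16.6, 16.52, 11.4 and 19.9 FPKM in the adrenal gland, without overlap (2.31 ± 0.14, adjusted p = 8.88e-08). Npy had 6.14, 13.5, 5.43 and 34.3 FPKM in the left ventricle and 20.6, 22.4, 14.9 and 20.0 FPKM in the adrenal gland. Left ventricle replicate 4 alone exceeded the adrenal values. Npy did not pass the test with it (-0.71 ± 0.53, adjusted p = 0.248) and was called lower without it (-1.21, adjusted p = 0.00457).

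Exocytosis and excitability genes were lower in the left ventricle in 25 of 33 cases that entered (of 43 in the table) and higher in 7, with a median of -1.34. Snap25, of the fusion complex, had 0.12, 0.24, 0.04 and 0.27 FPKM in the left ventricle and 10.6, 8.99, 11.4 and 14.03 FPKM in the adrenal gland, and the nicotinic receptor subunit Chrna3, through which nerves drive the medulla, had 0.25, 0.11, 0.35 and 0.25 FPKM in the left ventricle and 5.98, 5.44, 7.92 and 6.41 FPKM in the adrenal gland. The ganglion averaged 504 FPKM of Snap25 and 420 FPKM of Chrna3. Rab3b, a vesicle GTPase, was higher in the left ventricle at 80.1 to 95.6 FPKM than in the adrenal gland at 19.8 to 21.4 FPKM. Among 21 sympathoadrenal factors and receptors, 12 were lower and 8 higher, with a median of -1.36. These shares lie near those over all genes, 52.7% lower and 30.7% higher. The neurotrophic receptor genes Ret (1.23), Gfra1 (1.96), Gfra2 (0.52) and Gfra3 (1.55) were among those higher, as was the factor Gata2 (0.39). Phox2a (-3.08) and Gata3 (-2.30), which specify the lineage, were lower, while Hand2 was higher in the left ventricle at 37.6, 29.4, 32.5 and 32.0 FPKM than in the adrenal gland at 22.2, 18.2, 24.7 and 21.8 FPKM. Epas1, the oxygen-sensing factor HIF-2 alpha, averaged 202 ± 12.3 FPKM in the left ventricle and 27.8 ± 2.57 FPKM in the adrenal gland.

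Marker genes of cells that both organs contain differed as well. Of 25 endothelial genes that entered, 21 were higher in the left ventricle, 18 more than 2-fold, and 2 lower, with a median of 1.99. Vwf had 68.4, 56.9, 43.6 and 49.7 FPKM in left ventricle libraries and 1.23, 1.43, 1.54 and 0.97 FPKM in adrenal libraries. Genes of the continuous capillaries of muscle had wide gaps. Aqp7 had 73.5, 71.0, 62.8 and 82.5 FPKM in the left ventricle and 0.35, 6.08, 1.5 and 0.25 FPKM in the adrenal gland. Its adrenal maximum was in replicate 2, the library with the high fat cell markers. Meox2 had a gap of 4.16. Plvap, which forms the diaphragms of fenestrated endocrine capillaries, was lower in the left ventricle at 1.13 to 2.63 FPKM than in the adrenal gland at 29.0 to 41.8 FPKM (-3.60 ± 0.17). The general endothelial receptor Kdr differed little (0.41). Smooth muscle and pericyte genes were higher in 11 of 12 cases, the exception being Tagln (-1.54); the pericyte gene Rgs5 averaged 216 ± 48.8 FPKM in the left ventricle and 20.5 ± 0.319 FPKM in the adrenal gland.

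Among 35 fibroblast and matrix genes 27 were higher in the left ventricle, 5 lower and 3 not called, with a median of 1.91. Col3a1 averaged 179 ± 37.9 FPKM in the left ventricle and 19.5 ± 5.03 FPKM in the adrenal gland, and the small proteoglycan lumican (Lum) had 99.9, 67.0, 93.5 and 115 FPKM in the left ventricle and 2.77, 4.99, 4.13 and 4.18 FPKM in the adrenal gland. Lysyl oxidase (Lox), which cross-links collagen, went against the list, at 3.60 to 4.59 FPKM in the left ventricle and 79.7 to 84.2 FPKM in the adrenal gland. So did osteopontin, Spp1, with 0.51, 1.23, 2.86 and 0.36 FPKM in the left ventricle and 637, 655, 617 and 864 FPKM in the adrenal gland, a difference of -8.39 ± 0.32 (SE, limma adjusted p = 4.19e-08). The other genes called lower were Fmod, Timp1 and Timp3.

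Leukocyte markers did not move together. Of 25 listed, 19 entered; 8 were higher and 9 lower in the left ventricle, with a median of 0.20 and 1 difference of more than 2-fold, that of Cd14 (-1.52 ± 0.11). After median-of-ratios scaling 10 were higher and 2 lower, and after quantile normalization 10 were higher and 3 lower. Mrc1 (-1.07), C1qa (-0.29) and Lyz2 (-0.43) were among the lower genes and Ptprc (0.55) and Cd4 (0.94) among the higher ones. Schwann cell genes were similarly mixed, 3 higher and 5 lower of 11, with S100b at 2.01, 1.18, 1.71 and 3.68 FPKM in the left ventricle and 19.5, 22.8, 16.7 and 18.4 FPKM in the adrenal gland. After median-of-ratios scaling and after quantile normalization 4 were higher and 2 lower, and their median of -0.15 was 0.06 after the first and -0.06 after the second. Fat cell genes split evenly, 5 higher and 5 lower. Fabp4, Lpl, Plin4, Pparg and Cidea, which cardiac muscle or its capillaries also express, were higher in the left ventricle, and Adipoq, Retn, Plin1, Cidec and Cfd were lower. Fabp4 had 1073, 1054, 1038 and 946 FPKM in the left ventricle and 22.3, 213, 52.2 and 12.4 FPKM in the adrenal gland; its difference of 4.57 was 5.33 without adrenal replicate 2. Adipoq ranged from 5.01 to 45.65 FPKM over adrenal libraries, and its maximum was in replicate 2. Red cell transcripts were higher in all left ventricle libraries, with Hba1 at 1373, 1179, 721 and 1998 FPKM in the left ventricle and 309, 318, 300.3 and 282 FPKM in the adrenal gland, although globin copies are near-identical and their split is uncertain; the part of retained blood in other differences was not tested.

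**Figure D4:**
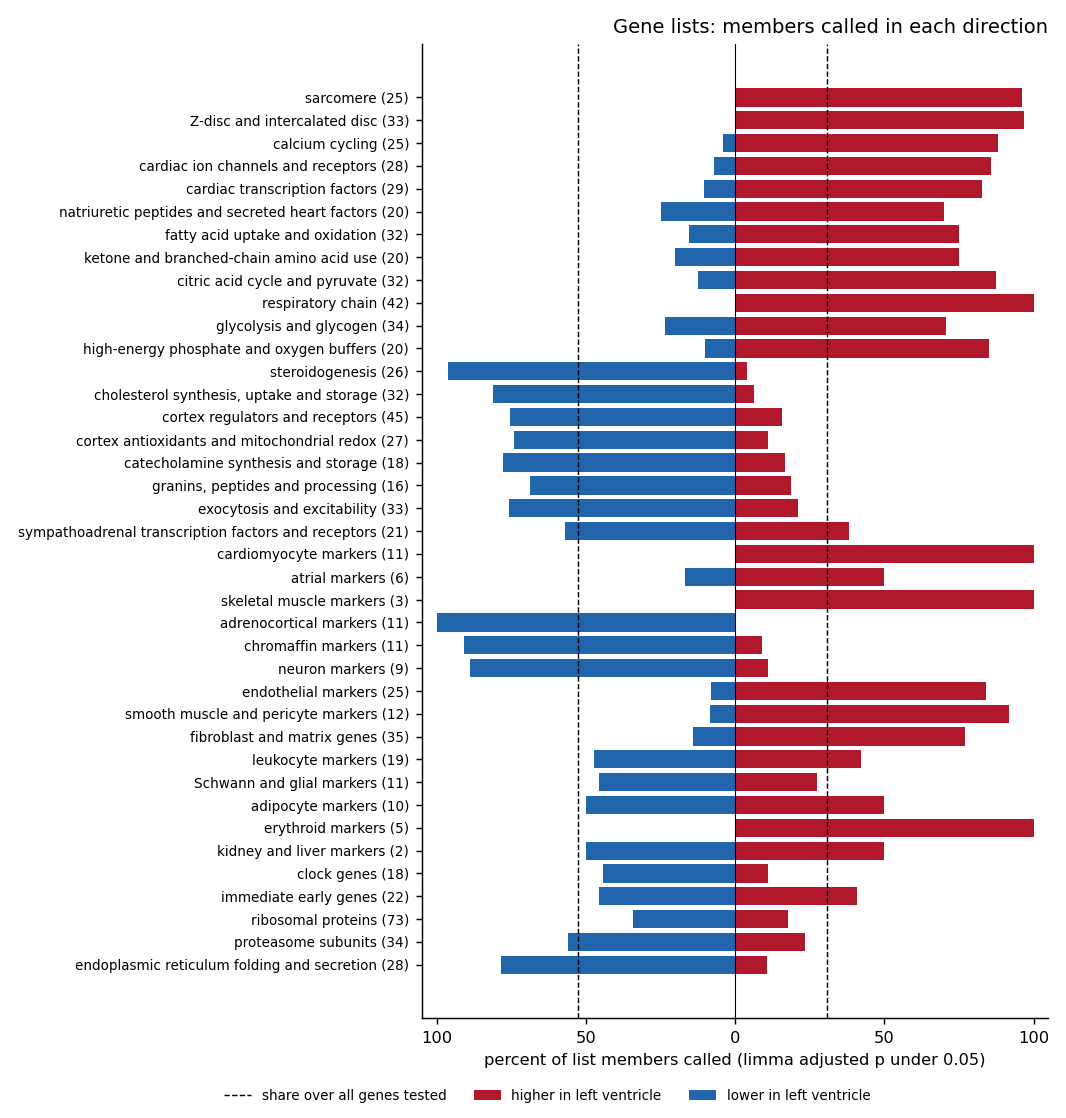
Percent of the members of each of 39 gene lists that were called higher (red, to the right) or lower (blue, to the left) in the left ventricle than in the adrenal gland of WKY, with the number of genes that entered in brackets. Dashed lines mark the shares over all 13236 genes, 30.7% higher and 52.7% lower. Muscle and energy lists reach well past the right line, and cortex and medulla lists past the left one. Of these, the sympathoadrenal list (12 lower and 8 higher of 21) lies near the left line and also passes the right one. Ribosomal, clock and proteasome lists lie near or inside both, and the leukocyte list (8 higher and 9 lower of 19) passes the right one.

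Machinery shared by both organs differed by little, and there the scaling decided the direction. Of 73 ribosomal protein genes 13 were higher, 25 lower and 35 not called, with a median of -0.11; after median-of-ratios scaling 43 were higher and 7 lower with a median of 0.20, and after quantile normalization 3 were higher and 53 lower. Exceptions in size were Rps19 (6.43, 4.20, 5.25 and 10.1 FPKM in the left ventricle, 49.6, 50.6, 49.1 and 45.5 FPKM in the adrenal gland) and Rpl3 (-1.68 ± 0.07); both belong to families with many processed copies, so their counts are uncertain. Proteasome genes were 8 higher and 19 lower of 34, with a median equal to that of all genes at -0.28, and after median-of-ratios scaling 15 were higher and 11 lower with a median of 0.03. The immunoproteasome subunits stood apart from the rest. Psmb8 had 27.6, 24.7, 26.9 and 23.0 FPKM in the left ventricle and 127, 134, 157 and 149.6 FPKM in the adrenal gland, and Psmb9 and Psmb10 differed by -1.59 and -1.47.

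Secretory pathway genes were lower in the left ventricle in 22 of 28 cases and higher in 3, with a median of -0.51. Sec61b, a subunit of the translocation channel, had 34.2, 23.3, 26.3 and 27.9 FPKM in the left ventricle and 403, 415, 443 and 451 FPKM in the adrenal gland, a difference of -3.90 ± 0.10, while its partner Sec61g did not pass the test (0.17). Of 18 clock genes that entered 2 were higher, 8 lower and 8 not called, with a median of -0.35. After median-of-ratios scaling 4 were higher and 5 lower, and after quantile normalization 2 were higher and 5 lower. The clock output factor Dbp spread over libraries in both tissues, at 19.5, 31.3, 39.9 and 9.67 FPKM in the left ventricle and 88.1, 155, 135 and 49.0 FPKM in the adrenal gland. Immediate early genes were 9 higher and 10 lower of 22 with a median of 0.01, Fosl2 (-3.17) and Klf4 (2.68) at the ends.

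Some genes matched closely. Of the 2191 genes that were not called, 610 had a 95% interval of the difference that lay within 1.2-fold of equality. Among 1057 genes with a mean of at least 50 FPKM in both tissues, the intervals nearest 0 were those of Psmb1, Psma6, Psmd3, Mrfap1, Cops5 and Serinc1. Psma6, a proteasome core subunit, had 173, 169, 172 and 173 FPKM in the left ventricle and 171, 165, 170.3 and 180.3 FPKM in the adrenal gland. The match holds on the deposited scale only, because median-of-ratios scaling put these 6 genes 0.29 to 0.31 higher in the left ventricle.

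The SHR libraries repeated the comparison in a second strain. On the same 13236 genes 11021 (83.3%) were called in SHR, 4124 (31.2%) higher and 6897 (52.1%) lower in the left ventricle. Of the WKY calls, 9688 were also called in SHR in the same direction, which is 87.7% of the WKY and 87.9% of the SHR calls, and 203 were called in opposite directions. Of the 3863 genes more than 2-fold apart in WKY, 3840 had the same sign in SHR and 3086 (79.9%) were more than 2-fold apart there too. List medians in WKY and SHR were 7.74 and 8.35 for the sarcomere, 2.11 and 2.22 for the respiratory chain, -5.70 and -5.66 for steroidogenesis and -1.70 and -1.31 for catecholamine genes. Leukocyte markers counted 8 higher and 9 lower in WKY and 17 higher and 1 lower in SHR. Ribosomal protein genes counted 13 higher and 25 lower in WKY and 48 higher and 6 lower in SHR. Whether these lists differ between the strains was not tested.

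The tissue difference itself differed between the strains in 4072 genes (30.8%) in a joint model of 16 libraries, and by at least 1 log2 unit in 687 (5.19%). Me1, the cytosolic malic enzyme, was the single gene more than 2-fold apart in opposite directions. It had 58.7, 62.8, 55.9 and 70.2 FPKM in the left ventricle and 301, 384, 364 and 366 FPKM in the adrenal gland of WKY. In SHR it had 79.4, 80.7, 79.2 and 78.5 FPKM in the left ventricle and 20.3, 19.6, 27.6 and 21.6 FPKM in the adrenal gland. The differences were -2.50 in WKY and 1.80 in SHR (difference between them -4.30 ± 0.14, limma adjusted p = 2.98e-12). The adrenal libraries of the strains stood further apart than the left ventricle libraries, which did not overlap between the strains either. Enolase Eno1 turned as well (-1.22 in WKY, 0.64 in SHR), with left ventricle levels of 166, 179, 177 and 167 FPKM in WKY and 506, 503, 468 and 529 FPKM in SHR. Serpinc1, antithrombin, had 0.05, 0.05, 0.05 and 0 FPKM in the left ventricle and 88.8, 73.3, 76.6 and 76.3 FPKM in the adrenal gland of WKY, and no more than 0.10 FPKM in any left ventricle or adrenal library of SHR.

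Several tissue differences had the same sign in both strains and unequal size. Cd36 had 903, 1027, 931 and 891 FPKM in the left ventricle and 271, 232, 292 and 251 FPKM in the adrenal gland of WKY, and 207, 208, 248 and 237 FPKM in the left ventricle and 3.03, 3.80, 6.23 and 3.80 FPKM in the adrenal gland of SHR, so that its tissue difference was 1.84 in WKY and 5.47 in SHR. Penk differed by 2.31 in WKY and 5.96 in SHR, where it had 214, 213, 261 and 119 FPKM in the left ventricle and 1.86, 2.61, 1.60 and 2.56 FPKM in the adrenal gland. The prolactin receptor Prlr had 0.07, 0.05, 0 and 0.09 FPKM in the left ventricle and 238, 206, 204 and 214 FPKM in the adrenal gland of WKY, a difference of -7.68; in SHR it is listed at 0 in the left ventricle and had 7.37, 8.91, 9.05 and 12.3 FPKM in the adrenal gland. Every adrenal library of WKY was above every adrenal library of SHR, and the tissue difference differed between the strains (-4.32 ± 0.15, limma adjusted p = 6.8e-12).

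**Figure D5:**
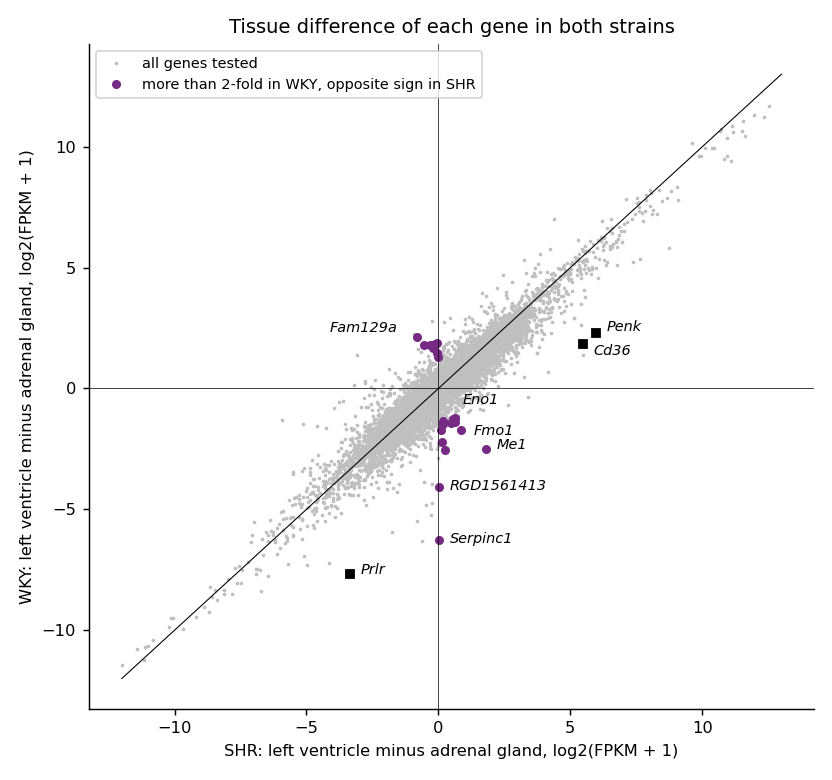
Tissue difference (left ventricle minus adrenal gland, log2(FPKM + 1)) of each of 13236 genes in WKY on the vertical axis and in SHR on the horizontal axis; the diagonal marks equal differences. Most genes follow the diagonal, 21 genes more than 2-fold apart in WKY had the opposite sign in SHR (purple), and Cd36, Penk and Prlr (squares) keep their sign but lie off it.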

How the data were processed

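RNA was extracted with Trizol and total RNA was sequenced on a BGISEQ-500 after KAPA RNA HyperPrep library preparation, per the labels' protocols. As software and build the submitters' processing notes list RSEM 1.3.1, Bowtie2, DESeq2 1.4.5 and Rnor_6.0, with no role for any of them. The authors deposited 1 table of FPKM values per gene and library for the 24 libraries, with no read counts, so count tests were not possible and the depth behind each value is unknown. The authors' deposited log2 ratios and q-values compare SHR with WKY within a tissue and were not used here. Of its 22864 rows 2358 were blank and were left out; 27 symbols turned into dates were restored by gene ID.

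The pseudocount was 1 throughout: values were taken to log2(FPKM + 1), which understates the change of low genes, from the deposited FPKM. Genes with at least 1 FPKM in 4 or more of the 8 WKY left ventricle and adrenal libraries were kept. The 2 tissues were compared with limma 3.58.1 (trend and robust; R 4.3.3) with Benjamini-Hochberg adjustment at 0.05, and with its test against a 2-fold null. Only the 8 libraries entered the WKY fit, the 8 SHR libraries the SHR fit and all 16 the strain-by-tissue model. Of these, only the WKY fit was tested on simulated data. Plotting used Python 3.11.15, pandas 2.3.3 and matplotlib 3.10.9.

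The 39 gene lists and 32 families of paired forms, and the comparison itself, were chosen with earlier results of these data known, so their counts are descriptions and carry no test. The lists hold 948 genes with a row, of which 847 entered. Genes described library by library came from a rule. It took a fixed list and the 10 largest called differences each way among genes of at least 5 FPKM in the higher tissue without overlap. It also took up to 3 called members of each list at that level, with or without overlap. The paired forms and the 6 genes nearest 0 among those of at least 50 FPKM in both tissues completed it. Other genes, including those turned between the strains, were chosen after their values were seen. Some genes are not reported here. Promoters are the 250 bases before each start in RefSeq's GRCr8 table, which held one for 10380 of the genes compared; the motifs of MEF2 and CArG by name, the GATA motif AGATAA, the TATA motif TATAAA, the steroidogenic factor motif CAAGGTCA and the cyclic AMP response element TGACGTCA were searched on both strands. Alternatives were another pseudocount, filters, scalings and limma settings, a fit of all 24 libraries, a replicate block and leaving out each library.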

Additional observations from a re-analysis of the deposited data

Results flagged for a closer look

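Among 380 groups of 4 libraries of the named genes, 22 (5.79%) held a library whose gap to the nearest other was large for the range of its group, where chance gives about 1 in 20. They were spread over all 8 libraries, with 4 each from left ventricle replicates 1 and 3 and 3 each from left ventricle replicate 4 and adrenal replicates 2 and 4. In the left ventricle, replicate 1 gave Ryr2 at 75.16, Tbx5 at 5.89, Hand1 at 0.14 and Actb at 591.57 FPKM. Replicate 2 gave Nr0b1, listed at 0.00, and Psma6 at 168.53 FPKM. Replicate 3 gave Cox6a2 at 2420.79, Th at 0.13, Cd300lg at 30.94 and Cox4i1 at 2198.09 FPKM. Replicate 4 gave Cox7b at 1435.19, Aldoc at 2.87 and Plin5 at 27.97 FPKM.

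In the adrenal gland, replicate 1 gave Tbx5 at 0.20 and Idh2 at 62.81 FPKM. Replicate 2, with the highest fat cell marker sum (528 FPKM), gave Acacb at 4.60, Cox8b at 12.79 and Pdk4 at 17.66 FPKM, each the highest of its group. Replicate 3 gave Slc2a1 at 8.12 FPKM. Replicate 4 gave Smyd1 at 0.12, Fgf1 at 1.87 and Spp1 at 863.96 FPKM.

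The tissue difference of 29 named genes differed between the strains by at least 1 log2 unit at an adjusted p under 0.05 in limma's joint model of 16 libraries. The values given are the WKY difference minus the SHR difference, so that a negative value means that the left ventricle stood lower against the adrenal gland in WKY than in SHR. Among energy genes these were Cd36 at -3.63, Lpl at -1.03, Oxct1 at -1.05, Eno1 at -1.85, Idh1 at -2.05, Me1 at -4.30, Cpt1b at 1.38, Me3 at 1.13 and Plin5 at 1.49. Among muscle genes they were Actc1 at -1.08, Acta1 at -1.34, Ankrd1 at -1.15 and Csrp3 at -1.32, and among transcription factors Hand2 at -1.44, Hand1 at -1.32, Npas2 at -1.41 and Klf4 at 1.66.

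Among genes of the medulla and of nerve they were Ddc at -1.21, Dbh at -1.05, Pnmt at -1.31, Penk at -3.65, Snap25 at -1.15, Uchl1 at -1.42 and S100b at 1.81. The remaining ones were Prlr at -4.32, Spp1 at -1.66, Cd300lg at -1.05, Serpina1 at -1.08 and Rps19 at -1.93.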

How the results depend on the processing

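Every count over all genes stayed within 1.5 times its value under each alternative run (134 counts). Genes called in WKY numbered 10640 after median-of-ratios scaling, 10806 after quantile normalization, 11210 with FPKM rescaled to a common sum, 11002 with a pseudocount of 0.1, 11189 in a fit of all 24 libraries and 10783 to 10889 when 1 library was left out. More than 2-fold differences ranged from 3248 with a filter of 5 FPKM to 4581 with a pseudocount of 0.1. Of the named genes, Mrfap1 (0.30), Cops5 (0.30) and Serinc1 (0.29) changed sign and were called higher after median-of-ratios scaling, as was Cops5 (0.20) after quantile normalization. Calls were lost in 4 cases, all by rescaling, for Slc25a5, Cox8a and Myl9. Among counts of list members, those called lower in the left ventricle numbered 2 in place of 1 for atrial markers without left ventricle replicate 1 or 3 or adrenal replicate 1, with FPKM rescaled to a common sum and in the fit of 24 libraries, and for calcium cycling without left ventricle replicate 4. Clock genes had 5 lower without left ventricle replicate 3 and 1 higher, in place of 2, without adrenal replicate 4 or with FPKM rescaled to a common sum. The median of immediate early genes was -0.09 without left ventricle replicate 1 or adrenal replicate 4 and -0.08 with FPKM rescaled to a common sum. Ribosomal protein genes had 8 higher, in place of 13, without left ventricle replicate 1 or adrenal replicate 1, and 7 higher and 43 lower with FPKM rescaled to a common sum, which also left 5 proteasome genes higher in place of 8. After median-of-ratios scaling cholesterol genes had 5 higher in place of 2, cortical antioxidant genes 7 in place of 3 (5 after quantile normalization) and secretory genes 5 in place of 3. Ketone and branched-chain amino acid genes then had 2 lower in place of 4 and phosphate and oxygen buffers 1 in place of 2, as did endothelial genes, also after quantile normalization. The fat cell median of -0.28 was then 0.02. A filter of 5 FPKM, which drops members, left 14 lower in place of 25 for exocytosis, 3 higher in place of 8 and 4 lower in place of 12 for sympathoadrenal factors, 5 lower in place of 8 for neurons, 5 higher in place of 8 for leukocytes (median -0.42), 1 higher in place of 3 for Schwann cells and 2 lower in place of 5 for fat cells (median 1.59). The cause of these changes was not tested.

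The libraries share replicate numbers, but same-numbered libraries did not deviate together (correlations of -0.058, 0.025, -0.005 and -0.085), so the numbers were not taken to pair them. With a replicate block 10941 genes were called and 3812 were more than 2-fold apart, 10995 were called in SHR and 4024 in the strain-by-tissue model, and Gata6 was then called (adjusted p = 0.0276); 4 clock genes were higher in place of 2 and 8 ribosomal protein genes in place of 13. The FPKM values carry no depth, so differences among genes near 1 FPKM have a precision that cannot be stated.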
